A study of Mus musculus with 32 samples.

Results

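Of 32 lymphomas from mice carrying the Eµ-myc transgene, 22 had a log2 expression value of 9 or more for Reln and are called Reln-high here, and 10 had a value under 9 and are called Reln-low. Tumours were chosen by the measured level of Reln alone, on the brighter of its 2 probe sets. In the transgene shared by all 32 tumours, Myc is placed under the Eµ enhancer of the antibody heavy chain locus, which is active in the B lineage. There was 1 Affymetrix Mouse430_2 array per tumour and no normal tissue or control group. The labels state neither age, sex nor strain, do not tell which tumours were extracted as tissue and which as dissociated cells, and do not say whether each tumour came from its own mouse, so p-values measure only the spread between these arrays. The first question was which other genes go with a low level of Reln, and the second was which B cell stage or chromosome state goes with it. Without normal tissue, a low level cannot be told from a loss.

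Reln encodes reelin, a large glycoprotein that neurons secrete into the extracellular matrix. It binds the lipoprotein receptors encoded by Vldlr and Lrp8, whose adaptor Dab1 is then phosphorylated by the Src family kinases Src and Fyn, and it guides the positioning of migrating neurons in the developing brain. B cells pass from pro-B and pre-B stages, marked by Rag1, Rag2 and the surrogate light chain genes Vpreb1 and Igll1, to mature cells with surface immunoglobulin and Ms4a1 (CD20), and from there to germinal centre cells with Bcl6 or plasma cells with Sdc1 and Jchain.

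The B lineage of the tumours was visible in both groups. Cd79a, a signalling chain of the B cell receptor, had log2 values from 10.64 to 11.64 in Reln-high tumours and from 9.37 to 11.63 in Reln-low tumours. Its partner Cd79b ran from 11.58 to 12.63 in Reln-high and from 11.11 to 12.44 in Reln-low tumours. Array medians lay between 5.72 and 5.8, and 0 pairs of arrays were identical. Salivary gland transcripts marked 11 tumours, those in the upper of the 2 clusters of Bpifa2, with 7 of 22 among the Reln-high and 4 of 10 among the Reln-low tumours. Tumours 24 and 2, both Reln-low, had the highest T cell scores (2.75 and 2.32 in SD units). The difference between 3′ and 5′ control probe sets, a measure of RNA degradation, had a median of 0.416 (range 0.272 to 0.963) in Reln-high and 0.372 (range 0.263 to 0.563) in Reln-low tumours. Xist, the RNA of the inactive X chromosome, was in its upper cluster in 13 of 22 Reln-high and 5 of 10 Reln-low tumours.

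Reln itself ran from 10.63 in tumour 29 to 13.27 in tumour 22 among the Reln-high tumours, with a median of 12.60. Among the Reln-low tumours it was 5.31 in tumour 5, 5.81 in tumour 17, 6.0 in tumour 13, 6.29 in tumour 15, 7.02 in tumour 24, 7.16 in tumour 18, 7.70 in tumour 2, 8.07 in tumour 30, 8.41 in tumour 31 and 8.76 in tumour 20. The Reln-low tumours were therefore spread over a wide range, with tumours 20, 31 and 30 nearest to the dividing value. Tumour 29 lay just inside the Reln-high group and tumour 20 just outside it, 1.87 apart, and no tumour lay between them. A dividing value of 10 gave the same groups, whereas a value of 8 moved tumours 20, 30 and 31 to the Reln-high side. The other Reln probe set was dim, from 2.68 to 4.47, and its values followed the first with a Pearson r of 0.77 over 32 tumours. These levels chose the groups and are a description.

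**Figure D1:**
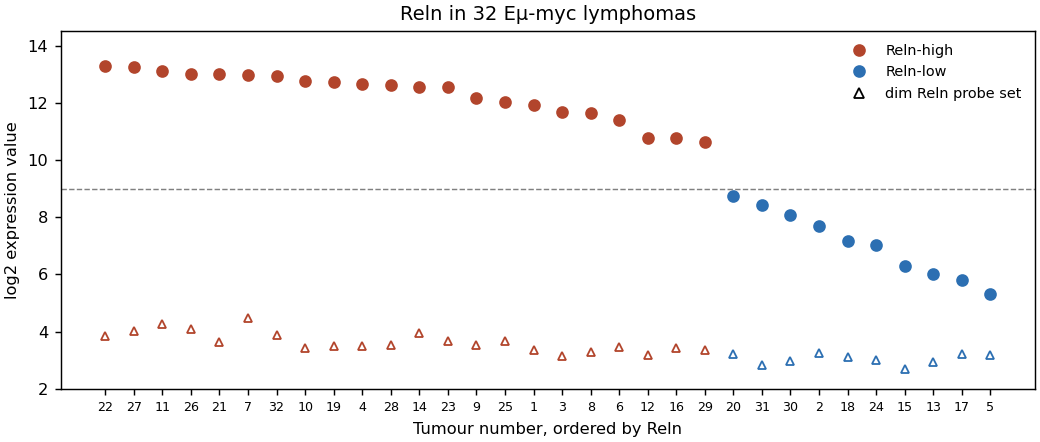
Log2 expression value of Reln in each of the 32 tumours, ordered from high to low, with Reln-high tumours in red, Reln-low tumours in blue and the dividing value of 9 as a dashed line. Circles are the probe set that defined the groups and open triangles the dim second probe set, and the gap between tumours 29 and 20 spans 1.87 log2 units.

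The sequence before the start site of Reln is shown because reelin's promoter is known as a CpG-rich one, and that of Mast4 because Mast4 was the gene most like Reln over these tumours. Each is the 250 bases before the RefSeq start, read 5′ to 3′ on the gene's own strand, with every CG pair in capitals. Reln is at chr5:22344706-22344955 and Mast4 at chr13:103334493-103334742, both on the minus strand of GRCm38.p6.
Reln: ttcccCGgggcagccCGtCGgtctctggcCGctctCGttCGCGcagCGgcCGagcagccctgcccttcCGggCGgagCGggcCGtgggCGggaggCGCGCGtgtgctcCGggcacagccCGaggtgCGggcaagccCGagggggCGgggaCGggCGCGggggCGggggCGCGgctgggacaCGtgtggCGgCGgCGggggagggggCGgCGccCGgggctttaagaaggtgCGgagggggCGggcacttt
Mast4: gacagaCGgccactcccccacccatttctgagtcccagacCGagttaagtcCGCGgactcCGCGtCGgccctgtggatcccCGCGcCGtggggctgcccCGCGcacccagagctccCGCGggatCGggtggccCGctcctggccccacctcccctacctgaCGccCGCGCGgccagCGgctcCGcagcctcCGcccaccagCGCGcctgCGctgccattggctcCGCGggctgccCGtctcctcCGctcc
The Reln window held 37 CG pairs at 80% G and C, and 2.20% of 32851 such windows held as many. The Mast4 window held 30 CG pairs at 75.2% G and C, and 5.94% of windows held as many. The motif searched was CG, which reads the same on both strands, and the median window held 6. Methylation was not measured in these data.

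Few genes separated the groups. Of 11227 genes other than Reln, 38 (0.338%) differed at an adjusted p under 0.05 (limma, Benjamini-Hochberg), 23 of them higher (0.205%) and 15 lower (0.134%) in Reln-high tumours. At an unadjusted p under 0.05 there were 1890 genes (16.8%), with 1090 higher (9.71%) and 800 lower (7.13%). The smallest adjusted p was 0.0146, and the median difference over all genes was 0.02. Differences are Reln-high minus Reln-low on the log2 scale, with the standard error of the fit. Of the 38 genes, 10 differed by more than 1 on that scale, 7 higher and 3 lower. In 0 of the 11227 genes did the groups fail to overlap.

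Of the 23 genes higher in Reln-high tumours, Foxp1, a forkhead factor of early B cell development, had a lowest, median and highest log2 value of 10.90, 11.70 and 12.05 in Reln-high tumours, against 9.42, 10.93 and 11.50 in Reln-low tumours. It was 0.77 ± 0.15 higher (SE, limma adjusted p = 0.0198), and 21 of 22 Reln-high tumours lay above the Reln-low median. Zfp703, a zinc finger corepressor, ran from 7.65 through a median of 9.07 to 9.58 in Reln-high tumours and from 7.22 through 7.70 to 8.63 in Reln-low tumours. The difference of Zfp703 was 1.05 ± 0.20 (limma adjusted p = 0.0146). Zfp661, a zinc finger gene, was 0.65 ± 0.12 higher (limma adjusted p = 0.0146). Foxf2, a forkhead factor of mesenchyme named here after its values were seen, had the largest positive difference of the 38, at 1.87 ± 0.43 (limma adjusted p = 0.0469). Foxf2 stood at 5.61, 9.50 and 10.40 (lowest, median, highest) in Reln-high tumours and at 5.38, 7.12 and 9.50 in Reln-low tumours, so the ranges overlapped widely.

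Map2, which encodes a microtubule-associated protein best known from neurons, was at 4.16, 6.75 and 7.77 (lowest, median, highest) in Reln-high tumours and at 3.76, 4.52 and 6.44 in Reln-low tumours. The difference of Map2 was 1.79 ± 0.34 (limma adjusted p = 0.0146). One Reln-low tumour, number 15, held the value of 6.44, and the other 9 lay at or under 4.91. Mast4, a kinase related to microtubule-associated kinases, was at 5.49, 7.77 and 8.88 in Reln-high tumours and between 5.25 and 6.45 in Reln-low tumours, 1.54 ± 0.32 higher (limma adjusted p = 0.0222). Usp46, a deubiquitinase, had the smallest p of all genes and was 0.44 ± 0.08 higher (limma adjusted p = 0.0146). Cop1 and Det1, which work together in a ubiquitin ligase, were 0.44 ± 0.09 and 0.36 ± 0.07 higher (limma adjusted p = 0.0217 for both).

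Bckdhb, a subunit of the complex that breaks down branched-chain amino acids, was at 8.09, 8.58 and 9.06 (lowest, median, highest) in Reln-high tumours and at 7.65, 8.04 and 8.41 in Reln-low tumours. All 22 Reln-high tumours lay above the Reln-low median of Bckdhb, and the difference was 0.51 ± 0.10 (limma adjusted p = 0.0146). Slc25a23, a mitochondrial carrier of ATP-Mg and phosphate, was 1.06 ± 0.22 higher (limma adjusted p = 0.0222). Its mean was 6.11 in Reln-high and 5.05 in Reln-low tumours, so it too was over the filter only in the Reln-high group. Chst15, a sulphotransferase that acts on chondroitin sulphate, was 0.78 ± 0.16 higher, and the membrane protein genes Tmem229b and Gpr155 were 0.71 ± 0.14 and 0.86 ± 0.16 higher. Fcrla, a B cell protein related to Fc receptors that is named here after its values were seen, was 0.89 ± 0.19 higher (limma adjusted p = 0.0259).

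Of the 15 genes lower in Reln-high tumours, Cdkn1a, which encodes the cyclin-dependent kinase inhibitor p21, was at 6.98, 7.79 and 8.97 (lowest, median, highest) in Reln-high tumours and at 7.66, 9.18 and 10.59 in Reln-low tumours. No Reln-high tumour reached the Reln-low median of Cdkn1a, and the difference was -1.27 ± 0.25 (limma adjusted p = 0.0146), a level 2.41 times as high in Reln-low tumours. Ptpn22, a phosphatase that limits antigen receptor signalling, had the largest negative difference at -1.69 ± 0.36 (limma adjusted p = 0.0222). Ptpn22 was at 5.62, 6.84 and 9.17 in Reln-high tumours and at 6.99, 8.42 and 11.28 in Reln-low tumours, with tumour 6 highest among the Reln-high and tumour 24 among the Reln-low ones. Bcl2l2, the antiapoptotic Bcl-w, was at 6.32, 6.81 and 8.64 in Reln-high tumours against 7.57, 7.93 and 8.44 in Reln-low tumours, a difference of -0.93 ± 0.19 (limma adjusted p = 0.0217).

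Nlrx1, a mitochondrial protein of the NOD-like receptor family, was 5.10, 5.84 and 6.62 (lowest, median, highest) in Reln-high tumours and 6.15, 6.59 and 7.52 in Reln-low tumours. Its difference was -0.80 ± 0.15 (limma adjusted p = 0.0146). Src, one of the kinases that phosphorylate Dab1, differed by -0.69 ± 0.16 and the Polycomb gene Pcgf5 by -0.80 ± 0.18 (limma adjusted p = 0.0462 for both). Acadl, a dehydrogenase of fatty acid oxidation, Parp4, an ADP-ribosyltransferase, and Rab8b, a small GTPase of membrane traffic, differed by -0.42, -0.63 and -0.55. The remaining named genes of this direction, Pfdn5, Mtmr12, Smagp and Sh3bp1, share chromosome 15 and are described with it.

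**Figure D2:**
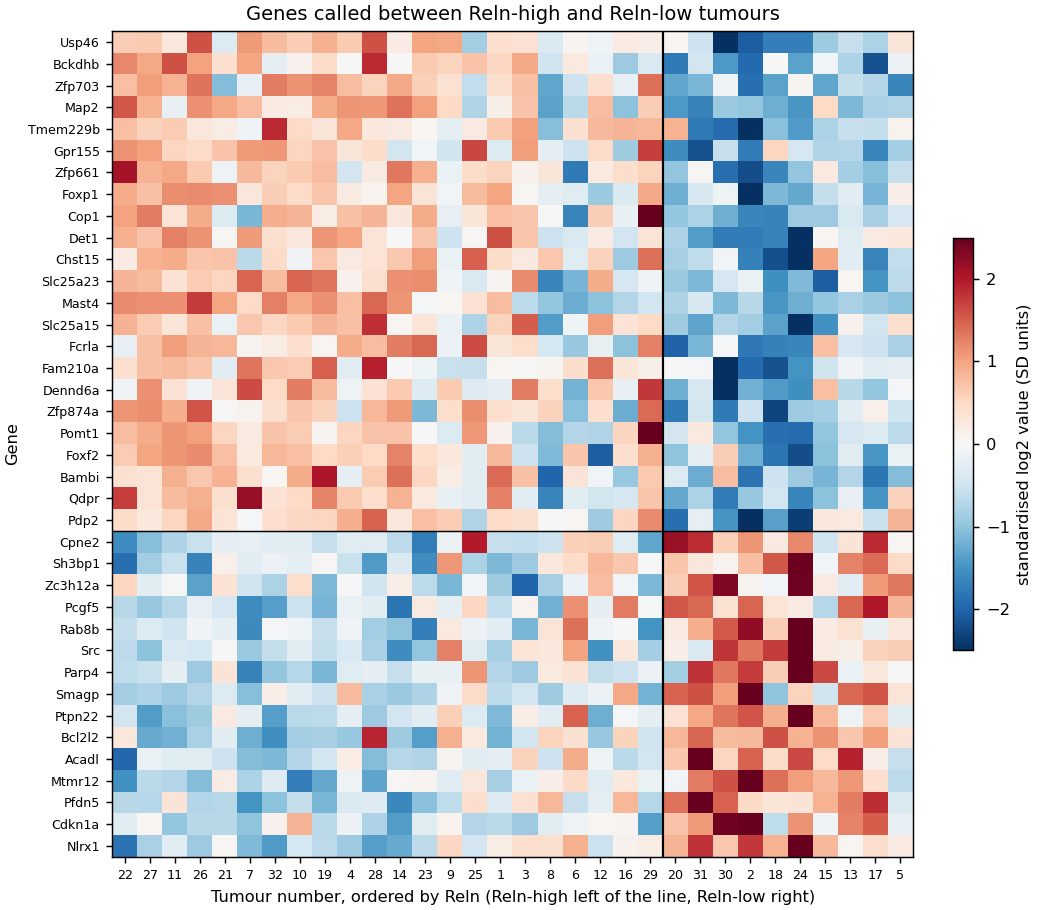
Standardised log2 values (each gene's mean subtracted and divided by its SD over the 32 tumours, red high and blue low) of the 38 called genes in rows, higher in Reln-high tumours above the horizontal line and lower below it. Columns are tumours ordered by Reln, with the 22 Reln-high tumours left of the vertical line and the 10 Reln-low tumours right of it, and every gene has tumours that depart from its group.

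Genes of other cell types were measured beside these calls. The mean score of the T cell, macrophage and dendritic cell, neutrophil and stroma lists ran from -0.913 to 0.751 with a median of -0.222 in Reln-high tumours, and from -0.675 to 1.24 with a median of 0.169 in Reln-low tumours. With that score as a covariate 0 genes were called (limma, smallest adjusted p = 0.132), 875 had an unadjusted p under 0.05, and all 38 genes kept their direction with an unadjusted p under 0.05. Without tumours 2 and 24, 4 genes were called, of which Zfp703 and Pfdn5 were among the 38. In bulk RNA, fewer cells of a type and less RNA per cell cannot be told apart. Leaving out the 11 tumours with salivary transcripts left 15 Reln-high and 6 Reln-low tumours and 437 called genes (3.89%), with 242 higher (2.16%) and 195 lower (1.74%), and 32 of the 38 genes remained called. With those tumours left out and the score added as well, 39 genes were called, 14 higher and 25 lower, of which 2 were among the 38.

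As a description over all 32 tumours, the genes most like Reln were Mast4 (Pearson r = 0.78), Bckdhb (0.71), Slc25a23 (0.70), Hsd17b13 (0.69) and Usp46 (0.69). Those running most against it were Nlrx1 (r = -0.68), Sh3bp1 (-0.68), Pfdn5 (-0.66), Pcgf5 (-0.65) and Mtmr12 (-0.65). Each r spans the gap between the groups. Within the 22 Reln-high tumours Mast4 followed Reln with r = 0.85, Hsd17b13, a lipid droplet dehydrogenase, with 0.67 and Bckdhb with 0.62, and within the 10 Reln-low tumours these values were 0.31, 0.23 and -0.28. Hsd17b13 was 2.27 ± 0.55 higher in Reln-high tumours but did not pass (limma adjusted p = 0.0588). Its Reln-low mean of 4.33 was under the filter of 5.78.

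No B cell stage list had a called member, which at 0.338% of all genes called is near the background for lists of this size. Of 15 tested genes of the pro-B and pre-B list, 0 were called, 2 were higher and 2 lower at an unadjusted p under 0.05 (9.71% and 7.13% of all genes), and the median difference was -0.12 beside 0.02 over all genes. The recombinase gene Rag1 ran from 3.62 through a median of 7.97 to 12.02 in Reln-high tumours and from 3.38 through 4.92 to 10.33 in Reln-low tumours, a difference of 1.82 ± 1.01 (limma adjusted p = 0.358). Rag2 was at 4.72, 6.25 and 9.63 in Reln-high tumours and at 4.39, 5.34 and 7.26 in Reln-low tumours, a difference of 1.15 ± 0.46 (limma adjusted p = 0.205). Both groups thus spanned nearly the whole range of Rag1, from tumours with hardly any signal to tumours with a strong one. Of the 15 genes 5 had positive and 10 negative differences. The precursor transcription factor gene Myb was at 0.42 ± 0.20 (limma adjusted p = 0.274), Bcl7a at 0.33 ± 0.23 and the receptor gene Cd93 at 0.25 ± 0.39. Vpreb1 differed by -0.94 ± 0.82 (limma adjusted p = 0.571), Igll1 by -0.62 ± 0.66, the cytokine receptor gene Il7r by -0.04 ± 0.61, the receptor kinase gene Kit by -0.42 ± 0.19 and the transcription factor gene Lef1 by -1.37 ± 0.58. The tumours with Vpreb1 over 11 were 6, 16 and 25 among the Reln-high and 20 and 31 among the Reln-low.

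Later stages had no called member either. Of the late pre-B and immature list 0 of 11 tested genes were called, with Irf4, a factor of light chain rearrangement and plasma cells, at 0.67 ± 0.22 (limma adjusted p = 0.147). Of the mature follicular list 0 of 18 were called, with the B cell antigen gene Ms4a1 at 0.16 ± 0.65 (limma adjusted p = 0.923) and the follicle homing receptor gene Cxcr5 at -1.11 ± 0.43 (limma adjusted p = 0.192). In the same list Ccr7, which guides lymphocytes to the T cell zone, was at 0.49 ± 0.14 and Klf2, a factor of resting lymphocytes, at 0.80 ± 0.25 (limma adjusted p = 0.0960 and 0.129). Ighm, the heavy chain of IgM, was at 11.46, 12.83 and 13.55 (lowest, median, highest) in Reln-high tumours and at 9.64, 12.44 and 14.06 in Reln-low tumours, a difference of 0.40 ± 0.28 (limma adjusted p = 0.476). Of the marginal zone and B1 list 0 of 9 were called, with 3 positive and 6 negative differences and a median of -0.18.

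All 6 tested germinal centre genes had negative differences, with a median of -0.45, and 2 had an unadjusted p under 0.05, but 0 were called. Over all genes 7.13% were lower at an unadjusted p under 0.05, and 56.3% had positive differences. Bcl6, the repressor that defines germinal centre cells, was at 5.04, 5.76 and 8.11 (lowest, median, highest) in Reln-high tumours and at 5.12, 6.18 and 10.90 in Reln-low tumours, a difference of -0.61 ± 0.41 (limma adjusted p = 0.447). The value of 10.90 belonged to tumour 2, and without it the difference of Bcl6 was -0.13. Of 9 plasma cell genes 0 were called, with 2 positive and 7 negative differences. Sdc1 was at -0.50 ± 0.45 and Jchain at -0.85 ± 0.92 (limma adjusted p = 0.581 and 0.666). The positive ones were Irf4, at 0.67 ± 0.22 and also in the late pre-B and immature list, and Mzb1 at 0.17 ± 0.26. Dntt, Il2ra, Fcer2a, Cr2 and Prdm1 had means over the 32 arrays under the filter and were not tested, though single tumours had clear values. Dntt, the nucleotide-adding enzyme of early B cells, was at 9.85 in tumour 16 of the Reln-high group, where the next tumour was at 6.01. Among the Reln-low tumours Dntt was at 9.72 in tumour 20 and 9.0 in tumour 31. These 3 tumours, noticed after their values were seen, also had Vpreb1 over 11 and a counted gain of chromosome 15. Cr2, the complement receptor of mature and marginal zone B cells, reached 6.18 in Reln-high tumours and 10.20 in Reln-low tumours, the second of these in tumour 2. Prdm1, the plasma cell factor, was highest at 8.83 in Reln-high tumour 29 and at 8.55 in Reln-low tumour 24. Fcer2a reached 9.64 in Reln-high tumour 8 and 7.29 in Reln-low tumour 2, and Il2ra 7.82 in Reln-high tumour 29 and 5.97 in Reln-low tumour 24. Ighd is not analysed here.

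**Figure D3:**
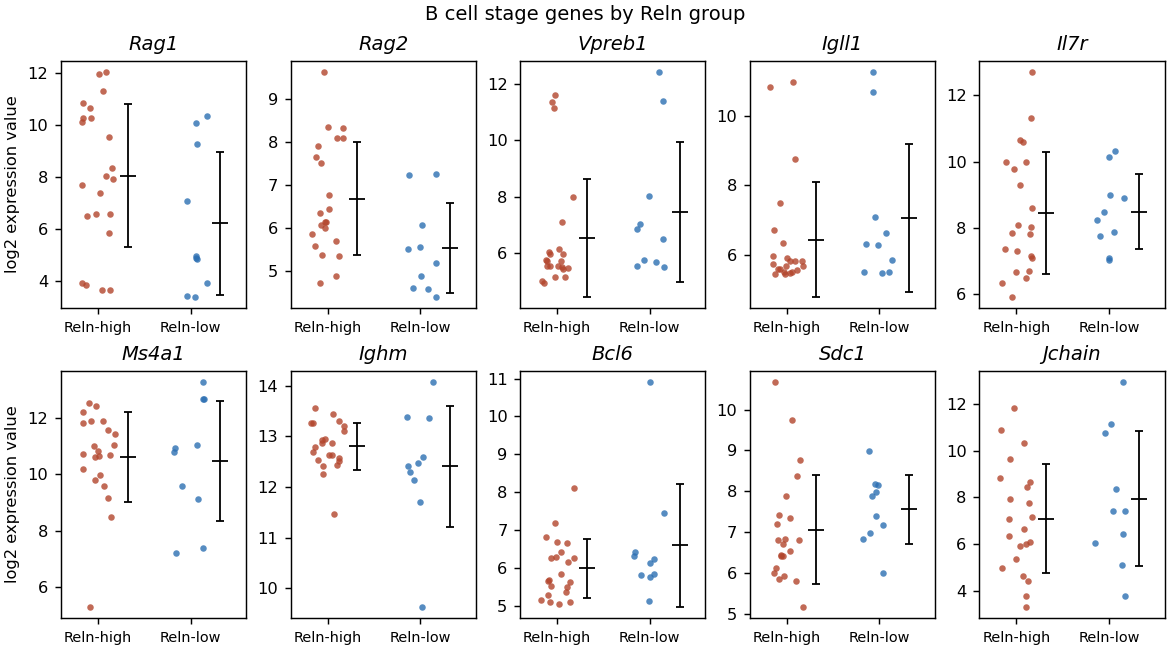
Log2 expression values of 10 genes of B cell stages in Reln-high tumours (red, left, n = 22) and Reln-low tumours (blue, right, n = 10), with a point per tumour and bars for mean ± SD. The groups overlap in every panel, and Rag1 covers 3.38 to 12.02 over both.

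The B lineage identity list had mostly positive differences, with 13 of 17 tested genes positive, a median of 0.19 and 3 higher at an unadjusted p under 0.05, but 0 were called. Its largest difference was in Bank1, a scaffold of B cell receptor signalling, at 1.44 ± 0.52 (limma adjusted p = 0.173). Among 14 genes of B cell receptor signalling 4 were higher at an unadjusted p under 0.05 (Btk, Prkcb, Syk and Fcgr2b) and 0 were called. Over all genes 9.71% were higher at an unadjusted p under 0.05, and 56.3% had positive differences. Without the 11 tumours with salivary transcripts 3.89% of all genes were called. There 2 of the 17 and 2 of the 14 genes passed, all higher, with Btk in both lists. Members of other lists passed there as well. Bank1 was then 10.81 ± 0.55 in Reln-high and 8.42 ± 1.05 in Reln-low tumours (SD, n = 15 and 6, limma adjusted p = 9.6e-04). Cd22, a B cell inhibitory receptor gene, was 0.63 ± 0.17 higher, and Btk, a kinase of the receptor pathway, 0.33 ± 0.09 higher. Notch2, the receptor needed for marginal zone B cells, was 0.73 ± 0.18 higher in that setting (limma adjusted p = 0.0314). It was the 1 called member among 9 tested genes of the marginal zone and B1 list, whose median there was negative, at -0.59. Sdc1 differed by -1.42 ± 0.28 and Cxcr5 by -2.05 ± 0.52 in the same setting (limma adjusted p = 0.00797 and 0.0319). No pro-B and pre-B, immature or germinal centre gene was called there either. With the score of other cell types added, Bank1 passed again (limma adjusted p = 0.00211), and Cd22, Btk, Notch2, Sdc1 and Cxcr5 did not (limma adjusted p = 0.143, 0.482, 0.0892, 0.123 and 0.345). In the 11 tumours left out, the groups overlapped in Bank1. It ran there from 6.46 (tumour 29) to 10.87 (tumour 4) in Reln-high and from 6.48 (tumour 20) to 11.33 (tumour 15) in Reln-low tumours.

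Lists of other cell types and of inflammation had mostly negative differences and no called member over all 32 tumours. Without the 11 salivary tumours 3.89% of all genes were called. Among them were Lat (T cell list, -1.91 ± 0.41), Thy1 (stroma list, -1.95 ± 0.33) and Oasl1 (interferon list, -0.72 ± 0.17). Their limma adjusted p values there were 0.0138, 0.00384 and 0.0205, and 0.213, 0.0731 and 0.270 with the score of other cell types added. Lat and Thy1 are themselves members of lists in that score, so part of their difference is removed by construction. Without the salivary tumours and without the score, Ccna2 (proliferation list) and Ppan (Myc targets) were called higher, and no macrophage or NF-kB gene was called. Of the macrophage and dendritic cell list 10 of 11 tested genes were negative, with a median of -0.68 and 6 lower at an unadjusted p under 0.05. Of this list the complement gene C1qa was at 8.98, 10.14 and 11.17 (lowest, median, highest) in Reln-high tumours and at 10.12, 10.52 and 12.59 in Reln-low tumours, a difference of -0.80 ± 0.27 (limma adjusted p = 0.153). The T cell list had a median of -0.57 with 6 of 7 genes negative, and the mean score ran from -0.95 to 1.38 in Reln-high and from -0.78 to 2.75 in Reln-low tumours, while its genes Cd8a, Cd8b1, Cd5 and Cd28 were under the filter. Of the NF-kB list 11 of 12 genes were negative, with a median of -0.48, and its score reached 3.10 in tumour 24 of the Reln-low group. The part of these cells in the 38 calls was not tested beyond the covariate given before. Of 14 interferon genes 0 were called, with a median of -0.29, and of 10 early stress genes, such as Dusp1 at -0.86 ± 0.31 and Junb at -0.38 ± 0.12, 0 were called, with a median of -0.38. The proliferation list had 0 of 17 called and a median of 0.08, glycolysis 0 of 10 and 0.06, and oxidative phosphorylation 0 of 14 and 0.01. Of 12 stroma genes 10 were negative, with a median of -0.20, and of 9 salivary gland genes all were negative, with a median of -0.69. Of the Myc target list 16 of 18 genes were positive, with a median of 0.13 and 6 higher at an unadjusted p under 0.05, and 0 were called. Over all genes 56.3% had positive differences, and 9.71% were higher and 7.13% lower at an unadjusted p under 0.05. Myc itself differed by 0.27 ± 0.18 (limma adjusted p = 0.444).

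**Figure D4:**
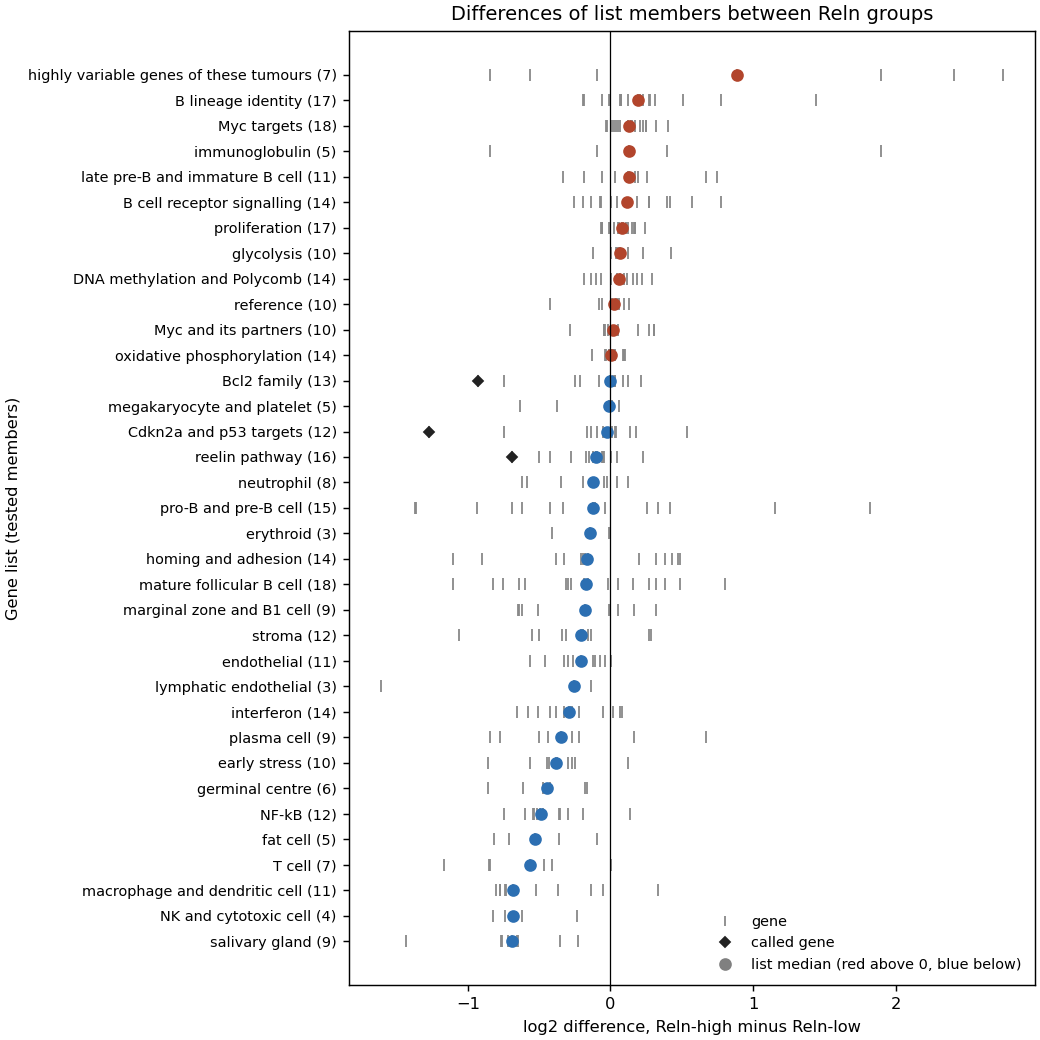
Log2 difference between Reln-high and Reln-low tumours for the tested genes of each list with at least 3 of them (grey ticks), with the list's median as a circle and called genes as black diamonds. The called members are Src, Cdkn1a and Bcl2l2, all below 0, and the lists of macrophage and dendritic cells, NF-kB and T cells have medians of -0.68, -0.48 and -0.57.

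The reelin pathway was measured in part. Of its 16 tested genes 1, Src, was called lower, and 3 others had an unadjusted p under 0.05, namely the adaptor gene Crk at 0.23 ± 0.08, Lrp8 at -0.50 ± 0.22 and the kinase gene Fyn at -0.43 ± 0.20 (limma adjusted p = 0.152, 0.249 and 0.278). Over all genes 16.8% had an unadjusted p under 0.05, 0.338% were called and 0.134% were called lower. These shares apply to the other lists of this paragraph as well. Lrp8 was at 5.50, 5.86 and 8.07 (lowest, median, highest) in Reln-high tumours and at 5.65, 6.48 and 7.44 in Reln-low tumours. Src was at 5.18, 5.72 and 6.67 in Reln-high tumours and at 5.79, 6.31 and 7.46 in Reln-low tumours. Its Reln-high mean of 5.778 lay just under the filter of 5.780. Vldlr and Dab1 were under the filter and not tested, with values up to 6.89 and 5.60. Without the salivary tumours Src and the adaptor gene Nck2 were called lower (limma adjusted p = 0.0359 and 0.0268), beside 1.74% of all genes. With the score of other cell types added, neither passed (limma adjusted p = 0.563 and 0.111). In the list of Cdkn2a and p53 target genes Cdkn1a was the called member among 12, while the p53 target Mdm2 was at -0.14 ± 0.07 (limma adjusted p = 0.299) and Cdkn2a at 0.54 ± 0.70 (limma adjusted p = 0.730). In the Bcl2 family Bcl2l2 was called among 13, and Bcl2 was at 0.22 ± 0.36 (limma adjusted p = 0.795). Of 14 genes of DNA methylation and Polycomb 0 were called, with the maintenance methyltransferase gene Dnmt1 at 0.16 ± 0.10 (limma adjusted p = 0.446).

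Highly variable genes of these tumours were set beside Reln. Hepacam2, an adhesion protein gene, was at 3.73, 9.82 and 11.78 (lowest, median, highest) in Reln-high tumours and at 3.81, 6.46 and 9.77 in Reln-low tumours, a difference of 2.76 ± 0.77 that did not pass (limma adjusted p = 0.0930). It stayed uncalled in 30 of 32 fits with 1 tumour left out. Without the salivary tumours it was 3.09 ± 0.79 higher and passed (limma adjusted p = 0.0325). With the score of other cell types added it did not pass there (limma adjusted p = 0.0824). Of the 22 Reln-high tumours, 12, 8 and 25 had Hepacam2 under 6, as had 4 of the Reln-low tumours (17, 18, 20 and 31). Cpn1, a carboxypeptidase subunit gene, differed by 2.41 ± 0.84 and the potassium channel gene Kcnk1 by 0.89 ± 0.87 (limma adjusted p = 0.163 and 0.622).

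None of the 20 tested neighbours of Reln on chromosome 5, 10 on each side, was called, beside 0.338% of all genes, and 5 had an unadjusted p under 0.05, beside 16.8% of all genes. Of these 20, 16 had positive differences, beside 56.3% of all genes, with a median of 0.11 and a range from -0.62 to 0.70. Orc5, a subunit of the origin recognition complex and the first tested neighbour on one side, was 0.39 ± 0.11 higher (limma adjusted p = 0.0930, r with Reln 0.63). Psmc2, a proteasome gene and the first on the other side, was 11.31 ± 0.14 in Reln-high and 11.31 ± 0.13 in Reln-low tumours (SD, n = 22 and 10). Ptpn12, a tyrosine phosphatase gene, ran against Reln at -0.62 ± 0.20 (limma adjusted p = 0.137).

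Chromosome state was read from expression, since a gained chromosome raises most of its genes together. Each tumour's value for a chromosome was the median, over the chromosome's genes, of the log2 value minus that gene's median, less the same over all genes. A value of at least 0.2 in size was counted as a gain or a loss. Between the groups 0 of 20 chromosomes differed after adjustment (two-sided permutation tests, smallest adjusted p = 0.151), and chromosomes 10 and 15 had the smallest p. Any autosomal gain or loss was seen in 14 of 22 Reln-high tumours (63.6%) and in 6 of 10 Reln-low tumours (60%), with p = 1 in Fisher's exact test.

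Chromosome 5, which carries Reln, averaged 0.019 ± 0.080 in Reln-high and -0.021 ± 0.014 in Reln-low tumours (SD, n = 22 and 10), a difference of 0.040 (permutation p = 0.103, adjusted 0.411). A gain was counted in tumour 7 alone, at 0.345 with Reln at 12.99, and no Reln-low tumour had a loss of it. Gains of chromosome 3, the most frequent, occurred in 6 of 22 Reln-high tumours (7, 8, 12, 22, 27 and 32) and in 2 of 10 Reln-low tumours (15 and 18). Gains of chromosome 18 were counted in 3 of 22 Reln-high tumours and in 0 of 10 Reln-low tumours.

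The widest difference was on chromosome 15, with -0.009 ± 0.057 in Reln-high and 0.087 ± 0.148 in Reln-low tumours (SD, n = 22 and 10). The difference was -0.095 (permutation p = 0.0151, adjusted 0.151). A gain was counted in 1 of 22 Reln-high tumours (16) and in 4 of 10 Reln-low tumours (13, 17, 20 and 31). Chromosome 10 differed by -0.065 (permutation p = 0.0101, adjusted 0.151), with a gain in 0 of 22 Reln-high tumours and in tumours 17 and 20 of the Reln-low group, both of which had chromosome 15 gained as well. Of 460 tested genes of chromosome 15, 313 had negative differences, 75 were lower and 7 higher at an unadjusted p under 0.05, and 4 were called lower. Over all genes these shares were 7.13% lower and 9.71% higher at an unadjusted p under 0.05, and 0.134% called lower.

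These 4 were Pfdn5, a prefoldin subunit gene (-0.38 ± 0.07), Mtmr12, a myotubularin-related gene (-0.44 ± 0.09), Smagp, a small adhesion protein gene (-1.37 ± 0.29), and Sh3bp1, which encodes a GTPase-activating protein for Rac (-0.69 ± 0.16). Their limma adjusted p values were 0.0146, 0.0198, 0.0246 and 0.0471. Pfdn5 was between 10.60 and 11.23 in Reln-high tumours, with the one that gained chromosome 15 at 11.23. It was between 11.34 and 11.67 in the 4 Reln-low tumours with the gain and between 10.92 and 11.39 in the 6 without it. Smagp was at 8.11 in the Reln-high tumour with the gain and at 5.94 to 7.94 in the other 21. In Reln-low tumours it was at 8.59 to 8.76 in the 4 with the gain and at 6.13 to 9.97 in the 6 without. Mtmr12 had a median of 8.51 in the 21 Reln-high tumours without the gain, against 8.83 in the 4 and 8.97 in the 6 Reln-low tumours. Myc lies on chromosome 15 too, and its median was 11.38 in those 21, 11.32 in the 4 and 11.10 in the 6.

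**Figure D5:**
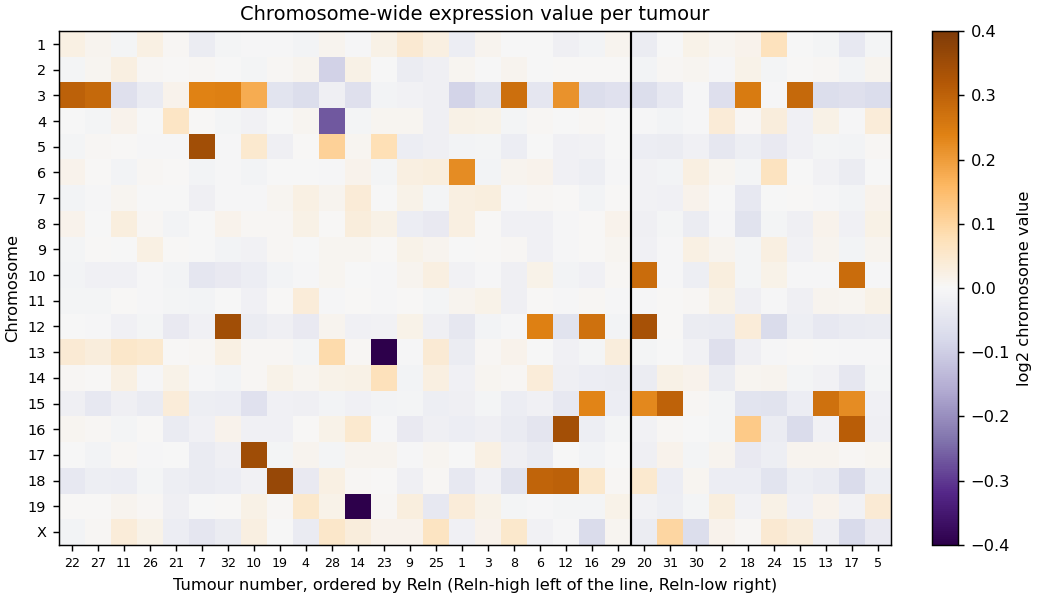
Chromosome-wide log2 value (colour, orange for a gain and purple for a loss, shown from -0.4 to 0.4) for each chromosome in rows and each tumour in columns ordered by Reln, with the 22 Reln-high tumours left of the line and the 10 Reln-low tumours right of it. Chromosome 15 is gained in tumour 16 of the Reln-high group and in tumours 20, 31, 13 and 17 of the Reln-low group, and chromosome 3 on both sides.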

How the data were processed

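Per the submitters' processing notes, the authors used RMA and the affy package, and what they deposited is 1 log2 value per probe set and array. Versions and parameters are not given in these sources. RMA gives all arrays the same distribution of probe intensities before these are summarised per probe set, and a change common to most genes would be lost. The summarised values still differed slightly between arrays, with medians from 5.72 to 5.80. Depth does not apply to arrays, and their number limits the precision. Of 45101 probe sets, 34958 had 1 gene symbol. Probe sets with a mean of at least 5.78, the median of all means, were kept. The one with the highest mean stood for its gene, which left 11227 genes besides Reln. That mean was taken over all 32 arrays, so a gene could pass with the mean of either group under 5.78. Among the 38 called genes Map2, Slc25a23 and Src did so.

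Groups were compared with limma 3.58.1 in R 4.3.3 (lmFit, eBayes, Benjamini-Hochberg adjustment over all 11227 genes). Chromosome values were compared with two-sided permutation tests of 100000 resamples, adjusted over 20 chromosomes, and any gain or loss with Fisher's exact test, in Python 3.11.15 with numpy 2.4.6, scipy 1.17.1 and pandas 2.3.3. Figures used matplotlib 3.10.9. Both steps were tested on simulated data. A large shift of 1 chromosome slightly moves the centre of the others, so differences of a few hundredths are given as values only. A list's score was the mean of its members' standardised values. Gene names came from the platform annotation and RefSeq (GRCm38.p6, which changed 0 symbols), and promoter sequences from RefSeq of the same build.

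The groups and the 36 lists were chosen with earlier results of these data known, and lists are described by counts and medians. Named genes were the 12 called genes of each direction with the largest moderated t, the 5 most and 5 least like Reln, called list members and up to 4 others with large differences, the stage genes, the reelin receptors, Reln's neighbours and the most variable genes. Alternatives were other filters, probe set rules, normalizations, dividing values, covariates, and tumours left out.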

Additional observations from a re-analysis of the deposited data

Results flagged for a closer look

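In the 10 Reln-low tumours, 75 measures were examined for a tumour whose gap to its nearest neighbour is large against the range of the group, and 7 were found. By chance about 1 in 20 groups shows such a gap. Tumour 2 had the lowest Foxp1, at 9.42 with the next at 10.70, and the highest Bcl6, at 10.90 with the next at 7.45. It also had the lowest chromosome 13 value, at -0.0614. Tumour 15 had the highest Map2, at 6.44 with the next at 4.91. Tumour 20 had the highest chromosome 12 value, at 0.337 with the next at 0.0368. Tumour 17 had the highest chromosome 16 value, at 0.308 with the next at 0.123, and tumour 24 the highest chromosome 1 value, at 0.0694. The chromosome 12 and 16 values count as gains, while the chromosome 1 and 13 values do not.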

How the results depend on the processing

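The count of 38 called genes depended on the tumours and covariates used. It was 20 with the 75th percentile filter, which tested 6815 genes, 62 with arrays shifted by the reference genes (77.4% of them higher, against 60.5%), 102 with the 3′ minus 5′ difference as a covariate, 0 with the score of other cell types as a covariate (875 at an unadjusted p under 0.05) and 437 without the salivary tumours. It was 4 without tumours 2 and 24. With the dividing value at 8 it was 1, and 0 of the 38 genes were called there. Grouping by the other Reln probe set, which set tumour 7 against the rest, gave 11. Among settings chosen after seeing the data, it was 3 without tumours 20, 30 and 31 and 115 with the other probe set as a continuous level. Leaving out 1 tumour gave 11 (without tumour 2) to 83 (without tumour 25), with over 1.5-fold moves also without tumour 6 (81), 15 (73), 16 (62), 27 (24), 14 (25), 18 (18) and 24 (16). Of the 38 genes, 10 were called in all 32 of these fits. The remaining alternatives gave 30 to 48 calls. All 38 (21 of 21 tested with the 75th percentile filter) kept their direction except under the grouping by the other probe set, where Chst15 was -0.40, Cop1 -0.37, Pdp2 -0.00896, Tmem229b -0.053 and Zfp703 -0.15. That setting has an arm of 1 tumour, so these values show where tumour 7 lay against the other 31 and say nothing of the Reln groups.

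The count of 0 called chromosomes held under all alternatives except that without the salivary tumours. There were 2 there, chromosome 10 (-0.064) and chromosome 11 (-0.014), both with an adjusted p of 0.0313 in exact permutation tests. Tumour 20 is a salivary tumour, so tumour 17 was the only Reln-low tumour left with a gain of chromosome 10. Over all 32 tumours its value was 0.281, and the other Reln-low tumours kept here lay from -0.0052 to 0.0312. The chromosome 11 difference is within the few hundredths that are given as values only. The share of tumours with any gain or loss differed by 3.64 percentage points and by -3.03 to 8.08 points with 1 tumour left out, negative without tumour 2, 5, 24 or 30. With a size of at least 0.3 it was 8 of 22 Reln-high and 2 of 10 Reln-low tumours, and with no filter on dim probe sets 2 of 22 and 0 of 10. No paired analysis was possible because the labels give 1 group. Groups of 22 and 10 arrays, made from the same arrays, limit what could be detected.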
